A study of Mus musculus with 12 samples.

Results

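The genes described here are 36 genes of cholesterol and fatty acid synthesis, of the control of both pathways and of sterol efflux, taken by symbol and followed over 4 genotypes of mouse islets. Among the probe sets that the platform annotation gives a gene alone, the one whose mean over 12 arrays was highest stood for that gene, and 32 of the 36 had one, among 17097 genes in all. Srebf1, Scd2, Abca1 and Nr1h2 had no such probe set and were not analysed here. Hmgcs1 and Acacb lay under the 25th percentile of gene means, a log2 level of 3.43, and were not tested, which left 30 of the 36 among 12825 genes tested. The label of synthesis holds for most of them, while Abcg1 and Nr1h3 serve sterol efflux and its control.

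The islets, the hormone-secreting cell clusters of the pancreas, came from mice of 12 weeks fed standard chow, and total RNA was measured on Affymetrix mouse arrays. There were 3 arrays each of hIAPP-TgxBACE2-KO mice, which carry a transgene for human islet amyloid polypeptide and lack BACE2, of BACE2-KO mice, of hIAPP-Tg mice and of wild-type (WT) mice. The human peptide can form islet amyloid, and beta cells carry the aspartyl protease BACE2. The strain name B6;129P2-Bace2tm1Bdes/J stands for all 4 groups, WT included. What drives the transgene is not stated in the labels. The labels speak of 1 mouse per array but do not say that islets were never pooled, and p-values cover only the differences among these arrays.

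Array medians lay between 4.22 and 4.35 and the highest values between 13.93 and 14.03, so the arrays shared a scale. The Bace2 probe set averaged 10.85 ± 0.17 in hIAPP-TgxBACE2-KO, 10.94 ± 0.08 in BACE2-KO, 11 ± 0.10 in hIAPP-Tg and 11.09 ± 0.16 in WT islets (log2 level, SD, n = 3 each). Its mean in islets without BACE2 was 0.15 lower (SE 0.07, limma adjusted p = 0.441), and where its probes lie relative to the deletion is unknown, so this gene checks no label and the genotypes rest on the labels. The beta cell list, with 8 of 10 markers measured and Ins2 highest at 13.98, had mean levels of 10.62 in hIAPP-Tg array 1 and of 11.06 to 11.37 in the other arrays. Adipocyte markers, which could bear on lipid genes, had 6 of 9 members measured, at a mean of 5.40 to 5.67 in every array. Of these, 3 lay under the filter level, with Lep lowest at 2.85, while Lpl was highest at 11.27 and Fabp4 lay at 8.47.

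Cells make cholesterol from acetyl-CoA through mevalonate, squalene and lanosterol, and fatty acids from acetyl-CoA through malonyl-CoA. When sterols are low, SCAP carries SREBP precursors to the Golgi, where proteases release the factors that raise these genes, and INSIG proteins hold SCAP back when sterols are plentiful. Liver X receptors sense oxysterols and raise efflux transporters, and ChREBP, the product of Mlxipl, answers glucose in liver and beta cells.

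Loss of BACE2 was followed over both transgene states, as the mean of the hIAPP-TgxBACE2-KO and BACE2-KO groups minus the mean of the hIAPP-Tg and WT groups, with 6 arrays on each side. Abcg1 fell, to a ratio of 0.81 on a linear scale, and Me1 rose, to a ratio of 1.21, and the other 28 members tested did not pass (limma, a linear model per gene with spread shared over genes, Benjamini-Hochberg adjusted p under 0.05 over all genes tested). These 2 of 30 stand beside 0.92% of all genes, and 7 of 30 had an unadjusted p under 0.05 beside 11.4% of all genes. In these bulk samples fewer cells of a type and less RNA per cell cannot be told apart.

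Abcg1, a transporter that moves cholesterol out of cells or between membranes within them, had log2 levels of 9.54, 9.58 and 9.61 in hIAPP-TgxBACE2-KO and 9.72, 9.67 and 9.65 in BACE2-KO islets, against 9.93, 9.92 and 10 in hIAPP-Tg and 9.98, 9.83 and 9.93 in WT islets. Every array without BACE2 lay under every array with it. The means were 9.63 ± 0.06 without BACE2 and 9.93 ± 0.06 with it (SD, n = 6 each). That is a difference of -0.30 log2 (SE 0.046, 95% interval -0.40 to -0.20, limma adjusted p = 0.01005) and rank 23 among all genes by p. The difference was -0.37 (SE 0.06, adjusted p = 0.05377) for hIAPP-TgxBACE2-KO over hIAPP-Tg and -0.23 (SE 0.06, adjusted p = 0.3725) for BACE2-KO over WT, and limma called neither alone. Whether the 2 sizes differ was tested as the interaction, which gave -0.14 (SE 0.09, adjusted p = 0.9995, 95% interval -0.34 to 0.06).

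A second Abcg1 probe set had 6.04, 6.05 and 6.40 in hIAPP-TgxBACE2-KO and 6.34, 6.11 and 6.24 in BACE2-KO islets, against 6.12, 6.29 and 6.62 in hIAPP-Tg and 6.54, 6.38 and 6.62 in WT islets. It was lower by the same sign with overlapping arrays, at an averaged difference of -0.23. The call held without each single array (-0.32 to -0.29, adjusted p 0.01518 to 0.03941) and was lost with that second probe set (adjusted p = 0.4725), with the mean of both (-0.27, adjusted p = 0.115) and without WT array 1 and hIAPP-TgxBACE2-KO array 1 together (-0.28, adjusted p = 0.05378). Macrophages are a known site of Abcg1 expression, and the macrophage list, with 11 of 11 markers measured and Adgre1 lowest at 4.22, ran from 6.02 to 7.05 in hIAPP-TgxBACE2-KO, 5.98 to 6.42 in BACE2-KO, 6.55 to 6.96 in hIAPP-Tg and 5.99 to 6.31 in WT arrays. For hIAPP-TgxBACE2-KO over hIAPP-Tg, 9 of 11 markers were lower (median -0.25, Lyz2 -1.34), and for BACE2-KO over WT 5 of 11 were (median 0.067). Limma called none in either comparison, beside 0.101% and 0.125% of all genes. At an unadjusted p under 0.05 there were 2 and 0 markers, beside 8.37% and 6.28% of all genes. The alpha cell list, with 3 of 7 markers measured, ran from 10.73 to 11.02 without BACE2 and from 10.46 to 10.80 with it. The part of either cell type in the result was not tested.

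Nr1h3, which encodes the liver X receptor alpha, ran from 5.17 to 6.29. It had 5.52, 5.59 and 5.58 in hIAPP-TgxBACE2-KO and 5.17, 5.93 and 5.97 in BACE2-KO islets, against 6.10, 5.69 and 6.07 in hIAPP-Tg and 5.86, 5.91 and 6.29 in WT islets. The 3 hIAPP-TgxBACE2-KO arrays lay under all 6 arrays with BACE2, while 2 of the 3 BACE2-KO arrays lay among them. The averaged difference was -0.36 (SE 0.15, limma adjusted p = 0.3745).

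Me1, the cytosolic malic enzyme that makes NADPH for fatty acid synthesis, had log2 levels of 8.59, 8.73 and 8.64 in hIAPP-TgxBACE2-KO and 8.76, 8.63 and 8.65 in BACE2-KO islets, against 8.35, 8.34 and 8.39 in hIAPP-Tg and 8.38, 8.52 and 8.40 in WT islets. Here too the arrays of both sides did not overlap, which held for 2 of 30 members and 1.36% of all genes. Means of 8.67 ± 0.06 without BACE2 and 8.40 ± 0.06 with it (SD, n = 6 each) gave a difference of 0.27 (SE 0.054, 95% interval 0.15 to 0.39, limma adjusted p = 0.03622) and rank 91 among all genes. The difference was 0.29 (SE 0.08) in hIAPP-TgxBACE2-KO over hIAPP-Tg and 0.25 (SE 0.08) in BACE2-KO over WT islets. The call was near the threshold: it was lost without any 1 of 11 arrays, and kept without hIAPP-TgxBACE2-KO array 1, with differences of 0.25 to 0.29 and adjusted p of 0.03938 to 0.1141. A second Me1 probe set had 8.0, 8.25 and 8.06 in hIAPP-TgxBACE2-KO and 8.41, 8.21 and 8.07 in BACE2-KO islets, against 8.01, 8.01 and 7.87 in hIAPP-Tg and 8.19, 8.25 and 8.14 in WT islets. Its arrays overlapped and its averaged difference was 0.088.

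**Figure D1:**
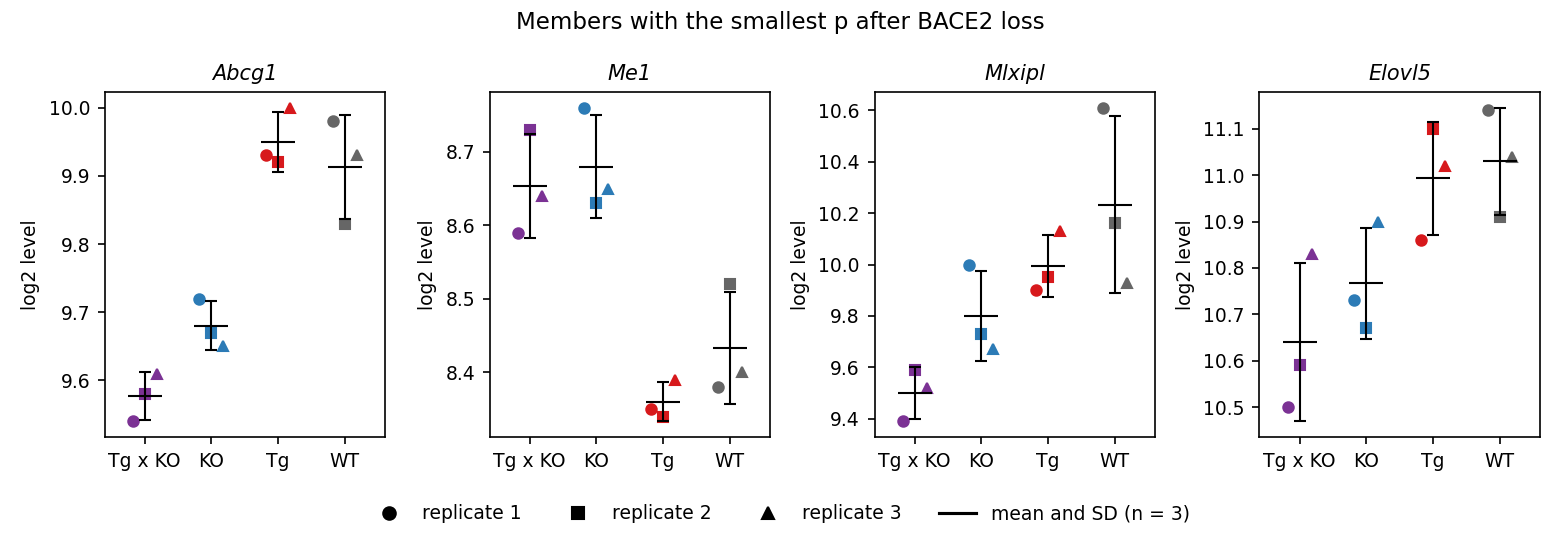
Log2 level (RMA) of the 4 members with the smallest p after BACE2 loss, by genotype (Tg x KO is hIAPP-TgxBACE2-KO, KO is BACE2-KO and Tg is hIAPP-Tg). Points are arrays and bars the mean and SD of 3; Abcg1 lies at 9.54 to 9.72 without BACE2 and 9.83 to 10 with it, Me1 at 8.59 to 8.76 without and 8.34 to 8.52 with it, and the arrays of Mlxipl and Elovl5 overlap.

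Mlxipl, the glucose-responsive factor ChREBP, had 9.39, 9.59 and 9.52 in hIAPP-TgxBACE2-KO and 10, 9.73 and 9.67 in BACE2-KO islets, against 9.90, 9.95 and 10.13 in hIAPP-Tg and 10.61, 10.16 and 9.93 in WT islets. The hIAPP-TgxBACE2-KO arrays were the lowest 3 of the 12, and a single BACE2-KO array reached into the range of arrays with BACE2. Its averaged difference of -0.46 (SE 0.10) missed the threshold at a limma adjusted p of 0.06591. Against WT, hIAPP-TgxBACE2-KO islets differed by -0.73 (SE 0.15, adjusted p = 0.1372), BACE2-KO islets by -0.43 and hIAPP-Tg islets by -0.24 (SE 0.15 each), and these 3 values share the WT arrays. Mlxipl had 1 probe set, and WT array 1 was its highest at 10.61. Without that array the difference was -0.25 for BACE2-KO and -0.052 for hIAPP-Tg islets over WT, and without WT array 3 it was -0.39 for hIAPP-Tg over WT.

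Elovl5, an elongase of polyunsaturated fatty acids, had 10.50, 10.59 and 10.83 in hIAPP-TgxBACE2-KO and 10.73, 10.67 and 10.90 in BACE2-KO islets, against 10.86, 11.10 and 11.02 in hIAPP-Tg and 11.14, 10.91 and 11.04 in WT islets. Only BACE2-KO array 3 lay above the lowest array with BACE2. The averaged difference was -0.31 (SE 0.07, limma adjusted p = 0.0785), and a second probe set gave -0.24.

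Promoter windows of members were read from RefSeq on GRCm38.p6, 250 bases before to 50 after the start, for 28 of the 36 members. Sqle, Stard4, Fdft1, Fdps, Abcg1, Fads1, Scd2 and Scd1 had none there. The motifs searched on both strands were the sterol regulatory element core TCACNCCAC, the E-box CACGTG, which ChREBP-type and other factors can bind, the CCAAT box CCAAT, which works beside sterol elements, as well as the spaced half-site pair of liver X receptors. The first 200 bases before the start are shown for Me1 and Mlxipl, which have 2 starts each, and for Elovl5, since these had the smallest p after BACE2 loss among members in the table, with matches in capitals (ATTGG is CCAAT on the other strand).
Me1 (chr9:86695915-86696114, minus strand): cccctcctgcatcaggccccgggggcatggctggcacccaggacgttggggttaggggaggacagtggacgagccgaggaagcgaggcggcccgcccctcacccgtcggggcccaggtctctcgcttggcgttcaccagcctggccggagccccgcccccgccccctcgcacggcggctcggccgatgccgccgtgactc
Me1 (chr9:86687278-86687477, minus strand): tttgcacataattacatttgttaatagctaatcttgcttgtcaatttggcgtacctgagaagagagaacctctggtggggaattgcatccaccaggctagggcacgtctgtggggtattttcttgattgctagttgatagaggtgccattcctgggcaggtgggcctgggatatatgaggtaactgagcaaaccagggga
Mlxipl (chr5:135089690-135089889, plus strand): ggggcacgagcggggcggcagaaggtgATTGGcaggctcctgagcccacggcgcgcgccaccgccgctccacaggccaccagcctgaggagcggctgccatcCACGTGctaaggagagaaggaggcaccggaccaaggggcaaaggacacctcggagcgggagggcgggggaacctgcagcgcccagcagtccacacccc
Mlxipl (chr5:135106691-135106890, plus strand): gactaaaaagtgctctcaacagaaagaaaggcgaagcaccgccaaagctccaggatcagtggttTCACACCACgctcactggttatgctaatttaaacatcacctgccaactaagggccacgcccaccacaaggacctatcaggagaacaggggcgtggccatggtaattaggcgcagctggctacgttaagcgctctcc
Elovl5 (chr9:77917165-77917364, plus strand): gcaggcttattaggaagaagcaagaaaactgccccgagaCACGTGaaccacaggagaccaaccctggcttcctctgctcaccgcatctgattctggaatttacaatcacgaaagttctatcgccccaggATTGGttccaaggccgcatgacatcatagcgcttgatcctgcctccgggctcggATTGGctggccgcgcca
Neither Me1 stretch holds a match, and a CCAAT box on the other strand lies further from the second start, at -208 to -204. The first Mlxipl stretch holds an E-box and a CCAAT box, and the second the sterol element core. The E-box occurred in 8 of 28 members (Abca1, Dhcr7, Elovl5, Hsd17b7, Insig1, Mlxipl, Sc5d and Scap; 28.6%), beside 8.09% of 27025 genes and 8.91% of 17491 protein-coding genes. The sterol element core was found in Hmgcs1 and Mlxipl (7.14%, beside 1.44% of all genes), and the receptor pair in none of the 28 and in 4 genes of the table (0.0148%). A match describes letters and not a bound site, and a missing match says nothing of a factor.

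The remaining genes of fatty acid synthesis did not pass in any comparison, where 0 to 0.92% of all genes passed. Acly, which makes cytosolic acetyl-CoA, ran from 12.33 to 12.64. Acaca, the carboxylase that makes malonyl-CoA, ran from 7.49 to 7.93, and Acacb, its mitochondrial relative, from 2.86 to 3.51. Fasn, the fatty acid synthase, had 7.77, 8.05 and 8.17 in hIAPP-TgxBACE2-KO, 7.91, 7.93 and 7.97 in BACE2-KO, 7.52, 7.96 and 8.0 in hIAPP-Tg and 7.71, 8.04 and 7.91 in WT islets. All groups overlapped, and the averaged difference after BACE2 loss was 0.11 (95% interval -0.11 to 0.33).

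Among elongases and desaturases, Elovl6, which extends palmitate, ran from 7.80 to 8.17. Fads1 and Fads2, the delta-5 and delta-6 desaturases, ran from 7.24 to 7.96 and from 4.93 to 5.90. Scd1, which puts the double bond into stearate, varied most of these genes from array to array: it had 6.52, 6.16 and 6.33 in hIAPP-TgxBACE2-KO, 6.04, 6.33 and 5.52 in BACE2-KO, 5.94, 6.33 and 6.60 in hIAPP-Tg and 5.08, 6.47 and 6.50 in WT islets. WT array 1 and BACE2-KO array 3 were the low arrays, and no group stood apart. The averaged BACE2 difference of -0.0033 had a 95% interval of -0.52 to 0.51, so the data leave room for a change in either direction within that range.

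Single arrays stood out among the cholesterol synthesis genes, and the 2 described next were picked for being extreme. Of the 13 mevalonate and sterol genes tested, none passed in any of the 8 comparisons (limma), where 0 to 0.92% of all genes passed. WT array 1 was the lowest of 12 arrays for 9 of the 13, beside 8.38% of all genes, and hIAPP-TgxBACE2-KO array 1 the highest for 6 of 13, beside 11.9% of all genes. Within its own group WT array 1 was the lowest of 3 for 12 of 13 genes, beside 34.5% of all genes.

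The mean log2 level of the 13 genes was 8.23, 7.97 and 8.09 in hIAPP-TgxBACE2-KO, 7.88, 8.13 and 7.97 in BACE2-KO, 8.12, 7.91 and 8.04 in hIAPP-Tg and 7.62, 8.12 and 7.98 in WT arrays. The low value of WT array 1 was thus the only mean under 7.88. The acinar cell list, with 7 of 10 markers measured and Cel lowest at 9.99, had means of 11.25, 10.79 and 10.22 in hIAPP-TgxBACE2-KO, 11.84, 11.45 and 10.56 in BACE2-KO, 11.29, 10.47 and 11.25 in hIAPP-Tg and 12.18, 11.69 and 9.57 in WT arrays. WT array 1 was the highest of the 12 for acinar markers, and their part in the sterol gene levels was not tested.

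**Figure D2:**
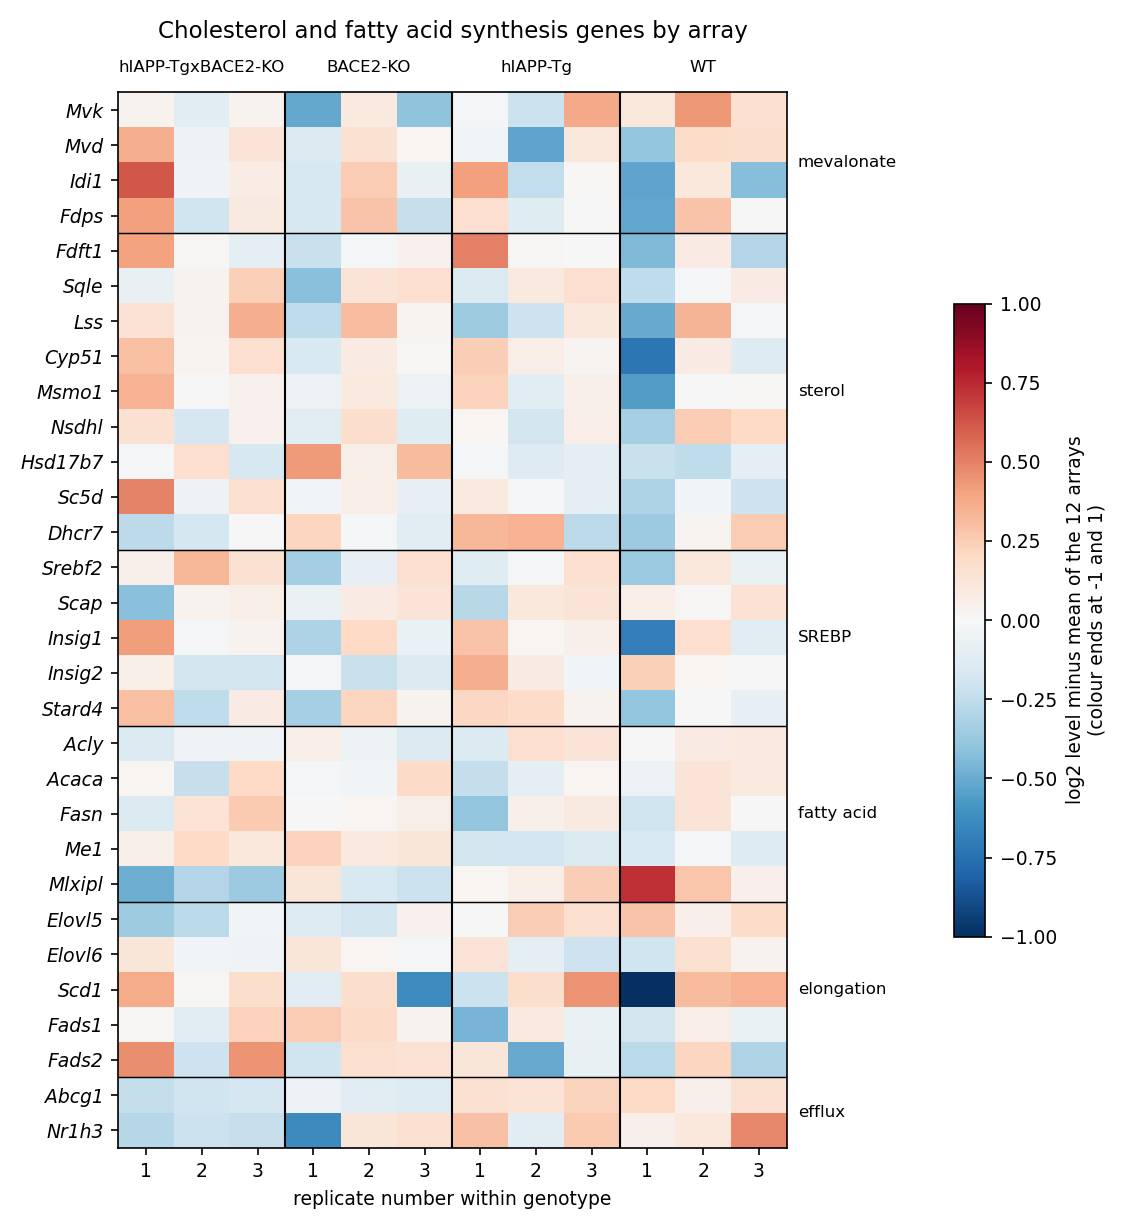
Deviation of each member's log2 level from its own mean over 12 arrays, with genes in rows by role and arrays in columns by genotype. The column of WT array 1 is below the mean for most mevalonate and sterol genes, where it is the lowest of 12 arrays for 9 of 13, and Abcg1, Mlxipl and Elovl5 are below their means in hIAPP-TgxBACE2-KO arrays.

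Of the mevalonate steps, Hmgcs1, the synthase before the rate-limiting reductase, had 3.27, 3.15 and 3.02 in hIAPP-TgxBACE2-KO, 3.28, 3.57 and 3.43 in BACE2-KO, 3.25, 2.97 and 3.44 in hIAPP-Tg and 3.39, 3.78 and 3.03 in WT islets. The hIAPP-TgxBACE2-KO arrays lay just under the BACE2-KO arrays, where 9.68% of all genes tested did not overlap, and all other pairs of groups overlapped. These levels were too low for a test, and they come from the only Hmgcs1 probe set with a single gene symbol. Mvd, the decarboxylase, ran from 4.52 to 5.41, Idi1, the isomerase of isopentenyl diphosphate, from 7.82 to 8.97, and Fdps, farnesyl diphosphate synthase, from 9.50 to 10.43. Mvk, mevalonate kinase, had 5.86, 5.71 and 5.86 in hIAPP-TgxBACE2-KO, 5.31, 5.92 and 5.42 in BACE2-KO, 5.81, 5.61 and 6.20 in hIAPP-Tg and 5.94, 6.26 and 5.98 in WT islets. Its BACE2-KO arrays all lay under the WT arrays (-0.51, SE 0.19, limma adjusted p = 0.7014), but its second probe set gave 0.057 there, with overlapping arrays. For BACE2 loss averaged over both transgene states, that second probe set had 0.16 against -0.29 in the one used.

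Of the sterol steps, Cyp51, the lanosterol demethylase, had 8.76, 8.49 and 8.63 in hIAPP-TgxBACE2-KO, 8.31, 8.54 and 8.47 in BACE2-KO, 8.71, 8.53 and 8.49 in hIAPP-Tg and 7.74, 8.54 and 8.33 in WT islets. WT array 1 stood below all others. Fdft1, squalene synthase, had 10.11, 9.72 and 9.62 in hIAPP-TgxBACE2-KO, 9.49, 9.70 and 9.75 in BACE2-KO, 10.21, 9.72 and 9.71 in hIAPP-Tg and 9.27, 9.79 and 9.42 in WT islets. Array 1 was the high one in both transgenic groups and the low one in both others. Sqle, squalene epoxidase and a control point of the pathway, had 9.84, 9.95 and 10.15 in hIAPP-TgxBACE2-KO, 9.50, 10.04 and 10.08 in BACE2-KO, 9.77, 10.01 and 10.08 in hIAPP-Tg and 9.66, 9.90 and 10 in WT islets. It showed no such high array, and its averaged BACE2 difference was 0.023 (95% interval -0.21 to 0.26).

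Sc5d, the sterol C5-desaturase, had 9.37, 8.82 and 9.03 in hIAPP-TgxBACE2-KO, 8.84, 8.94 and 8.79 in BACE2-KO, 8.97, 8.85 and 8.78 in hIAPP-Tg and 8.56, 8.84 and 8.66 in WT islets. In the probe set used, its highest and lowest arrays were again hIAPP-TgxBACE2-KO array 1 and WT array 1. Another Sc5d probe set, with a mean of 6.475, had WT array 1 highest at 7.03 and hIAPP-TgxBACE2-KO array 1 at 6.39. Lss, lanosterol synthase, ran from 6.72 to 7.59, Msmo1, the C4-methyl oxidase, from 9.72 to 10.63, and Nsdhl, which acts after it, from 7.05 to 7.64. Dhcr7, which makes the last step to cholesterol, had 6.22, 6.31 and 6.49 in hIAPP-TgxBACE2-KO, 6.70, 6.47 and 6.38 in BACE2-KO, 6.82, 6.83 and 6.22 in hIAPP-Tg and 6.12, 6.51 and 6.74 in WT islets, with every group overlapping the others.

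Hsd17b7, a 3-ketosteroid reductase of the pathway, had 6.48, 6.66 and 6.33 in hIAPP-TgxBACE2-KO, 6.92, 6.55 and 6.81 in BACE2-KO, 6.48, 6.36 and 6.40 in hIAPP-Tg and 6.27, 6.24 and 6.39 in WT islets. In the probe set used, the BACE2-KO arrays lay above all WT and hIAPP-Tg arrays, and the hIAPP-TgxBACE2-KO arrays did not. The difference was 0.46 for BACE2-KO over WT (SE 0.13, limma adjusted p = 0.4024; 0.22 with the mean of its probe sets) and 0.077 for hIAPP-TgxBACE2-KO over hIAPP-Tg (SE 0.13). Their difference, the interaction, was -0.38 (SE 0.18, limma adjusted p = 0.9995) and had the opposite sign, 0.21, in the probe set of highest variance. Another Hsd17b7 probe set, with a mean of 5.77, had the other order. It gave 0.087 for BACE2-KO over WT, with overlapping arrays. There the hIAPP-TgxBACE2-KO arrays lay above all other arrays, by 0.30 on average over hIAPP-Tg and 0.31 over BACE2-KO islets.

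**Figure D3:**
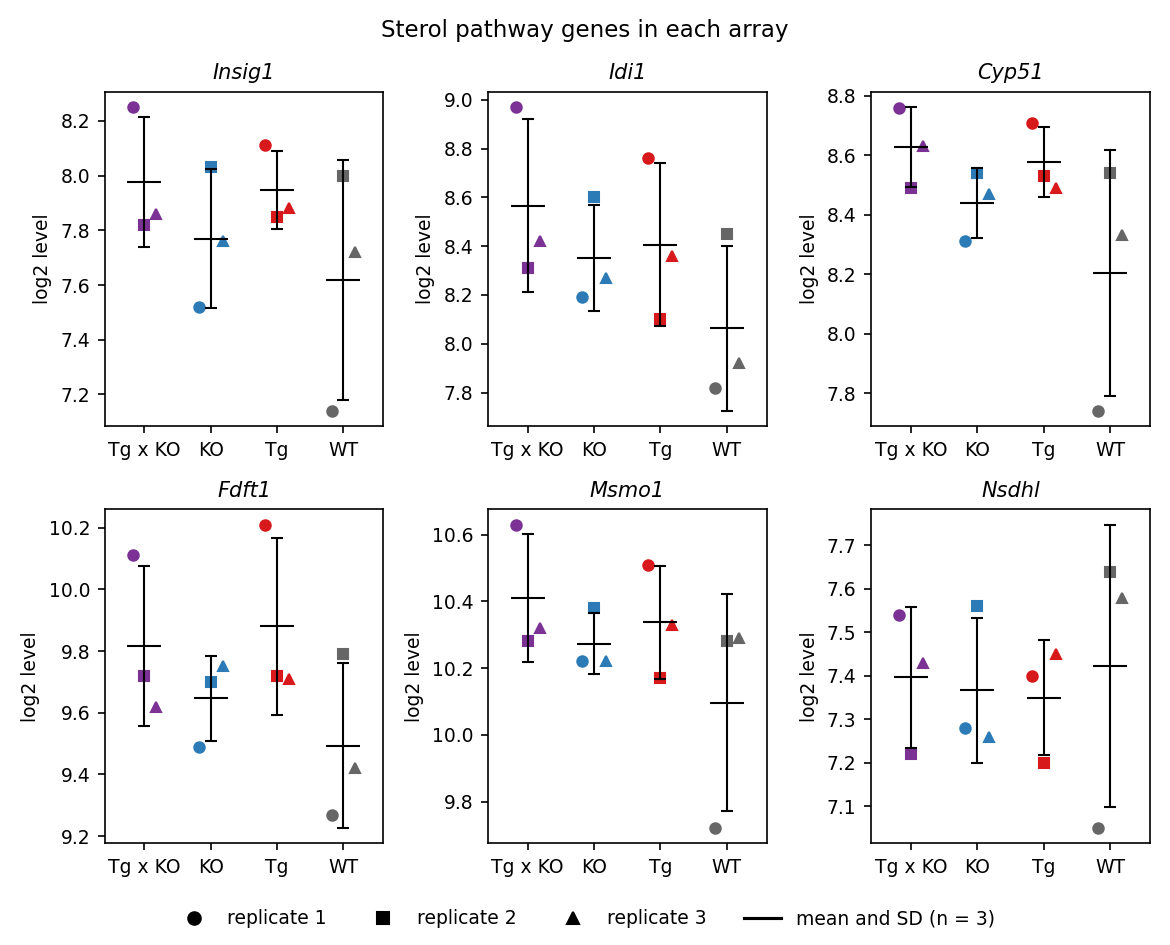
Log2 level (RMA) of Insig1, Idi1, Cyp51, Fdft1, Msmo1 and Nsdhl in each array by genotype (Tg x KO is hIAPP-TgxBACE2-KO, KO is BACE2-KO and Tg is hIAPP-Tg), with symbols for replicates and bars for the mean and SD of 3. WT array 1 is the lowest point for Cyp51 at 7.74 and Insig1 at 7.14, while hIAPP-TgxBACE2-KO array 1 is the highest at 8.76 and 8.25.

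The 200 bases before the start are printed for Insig1, Idi1, Cyp51 and Msmo1, which all had their lowest value in WT array 1 and their highest in hIAPP-TgxBACE2-KO array 1, again with CCAAT boxes and the E-box in capitals.
Insig1 (chr5:28071212-28071411, plus strand): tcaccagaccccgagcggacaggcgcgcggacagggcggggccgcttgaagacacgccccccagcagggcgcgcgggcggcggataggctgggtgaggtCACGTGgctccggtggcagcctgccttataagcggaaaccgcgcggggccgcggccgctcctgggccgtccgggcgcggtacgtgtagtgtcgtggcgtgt
Idi1 (chr13:8885406-8885605, plus strand): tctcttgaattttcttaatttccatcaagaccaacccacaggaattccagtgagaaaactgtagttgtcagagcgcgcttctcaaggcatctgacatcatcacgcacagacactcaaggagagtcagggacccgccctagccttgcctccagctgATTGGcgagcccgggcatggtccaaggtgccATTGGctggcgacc
Cyp51 (chr5:4104698-4104897, minus strand): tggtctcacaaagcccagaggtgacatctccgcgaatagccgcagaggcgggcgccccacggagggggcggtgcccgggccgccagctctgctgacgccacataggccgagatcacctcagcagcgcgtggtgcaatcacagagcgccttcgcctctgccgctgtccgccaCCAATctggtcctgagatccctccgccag
Msmo1 (chr8:64733579-64733778, minus strand): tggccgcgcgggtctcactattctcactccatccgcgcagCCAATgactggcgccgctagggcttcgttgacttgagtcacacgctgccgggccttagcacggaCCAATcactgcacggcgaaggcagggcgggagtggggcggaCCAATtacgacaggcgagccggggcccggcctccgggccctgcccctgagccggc
Msmo1 holds 3 CCAAT boxes, Idi1 holds 2 on the other strand and Cyp51 holds 1. The Insig1 stretch holds an E-box, and a CCAAT box on the other strand lies further from its start, at -216 to -212. The Sc5d window holds an E-box at -98 to -93 and a CCAAT box on the other strand at -24 to -20. A CCAAT box was found in all 11 matched mevalonate and sterol genes, in 10 of 17 other members (58.8%) and in 41.1% of all genes (42.3% of protein-coding genes). Since every matched gene of these steps held one, the motif did not set genes with that array order apart from the others.

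Of 5 SREBP control genes tested, 3 had WT array 1 as the lowest of its group, beside 34.5% of all genes. Insig1, the sterol-regulated anchor of SCAP, had 8.25, 7.82 and 7.86 in hIAPP-TgxBACE2-KO, 7.52, 8.03 and 7.76 in BACE2-KO, 8.11, 7.85 and 7.88 in hIAPP-Tg and 7.14, 8.0 and 7.72 in WT islets. Array 1 was the high one in both transgenic groups, and WT array 1 was the lowest of all. Srebf2, which encodes SREBP2, had 6.76, 7.04 and 6.86 in hIAPP-TgxBACE2-KO, 6.37, 6.63 and 6.88 in BACE2-KO, 6.59, 6.70 and 6.88 in hIAPP-Tg and 6.34, 6.82 and 6.64 in WT islets. All groups overlapped, and its averaged BACE2 difference was 0.095 (95% interval -0.15 to 0.34).

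Stard4, a cholesterol carrier of the cytosol, had 7.40, 6.84 and 7.18 in hIAPP-TgxBACE2-KO, 6.76, 7.31 and 7.13 in BACE2-KO, 7.30, 7.28 and 7.13 in hIAPP-Tg and 6.71, 7.10 and 7.01 in WT islets. The hIAPP-Tg arrays lay above the WT arrays. Scap ran from 8.21 to 8.77. Insig2, the second anchor, ran from 8.96 to 9.54, with 9.24, 9.0 and 9.0 in hIAPP-TgxBACE2-KO and 9.17, 8.96 and 9.04 in BACE2-KO islets, against 9.54, 9.26 and 9.15 in hIAPP-Tg and 9.42, 9.20 and 9.18 in WT islets. Its averaged BACE2 difference was -0.22 (SE 0.08, limma adjusted p = 0.2941).

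The transgene, averaged over both BACE2 states, left 0 of 30 members called by limma, beside 0.0078% of all genes, and 4 of 30 at an unadjusted p under 0.05 beside 7.59%. Cyp51 differed by 0.28 (SE 0.12), Fdft1 by 0.28 (SE 0.12), Mlxipl by -0.27 (SE 0.10), each at an adjusted p of 0.6436, and Sc5d by 0.20 (SE 0.09, adjusted p = 0.6485). Insig1 differed by 0.27 (95% interval -0.04 to 0.58), Scd1 by 0.32 (-0.19 to 0.84) and Abcg1 by -0.033. Without WT array 1 these values were 0.089 for Scd1, 0.15 for Insig1, 0.16 for Cyp51 and -0.18 for Mlxipl. Scd1 was at 0.21 without BACE2-KO array 3, and Sc5d at 0.12 without hIAPP-TgxBACE2-KO array 1. No member was without overlap, beside 0.288% of all genes. The median over members was 0.018 and over all genes -0.023. For the 13 mevalonate and sterol genes the median was 0.10, and without WT array 1 it was 0.0067.

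In hIAPP-Tg over WT islets no member was called (limma, 0.0156% of all genes), 2 of 30 had an unadjusted p under 0.05 (4.52% of all genes), and Stard4 was the only member whose arrays did not overlap (9.16% of all genes). Fdft1 differed by 0.39 (SE 0.17), Cyp51 by 0.37 (SE 0.17) and Stard4 by 0.30, all at an adjusted p of 0.95. Without WT array 1 Cyp51 differed by 0.14 and Stard4 by 0.18, and without hIAPP-Tg array 1 Fdft1 differed by 0.22. The probe set of highest variance gave 0.050 for Cyp51 and 0.13 for Stard4. For BACE2-KO over WT, 0 of 30 were called (0.125% of all genes), 6 had an unadjusted p under 0.05 (6.28%) and 6 did not overlap (12.9%). The median of the 13 mevalonate and sterol genes was 0.087 there, with 11 of 13 higher, and -0.077 without WT array 1, with 5 of 13 higher.

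In hIAPP-TgxBACE2-KO over hIAPP-Tg islets no member passed (limma, 0.101% of all genes), 4 of 30 had an unadjusted p under 0.05 (8.37%) and 5 did not overlap (11.1%). Me1 had an adjusted p of 0.275 there, Elovl5 of 0.3437 at -0.35 (SE 0.10) and Mlxipl of 0.3621 at -0.49 (SE 0.15). In hIAPP-TgxBACE2-KO over BACE2-KO islets, no gene in all was called (0%), and 0 of 30 members had an unadjusted p under 0.05, beside 4.44% of all genes, while 2 did not overlap (9.68%). Mlxipl differed by -0.30, Hsd17b7 by -0.27, Srebf2 by 0.26 and Sc5d by 0.22, all at an adjusted p of 0.9615.

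In hIAPP-TgxBACE2-KO over WT islets, again with no call (limma, 0.133% of all genes), 7 of 30 members had an unadjusted p under 0.05 (8.43%) and 7 did not overlap (14.9%). Abcg1 differed by -0.34 (adjusted p = 0.1044), Mlxipl by -0.73, Elovl5 by -0.39 (adjusted p = 0.2656) and Sc5d by 0.39 (adjusted p = 0.3613). The Sc5d value was -0.41 in its probe set of highest variance and 0.24 without hIAPP-TgxBACE2-KO array 1. The interaction gave 0 calls among members (0.0078% of all genes) and 0 at an unadjusted p under 0.05 (2.4%); Mvk had 0.45 (SE 0.27) and Dhcr7 -0.34 (SE 0.27).

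**Figure D4:**
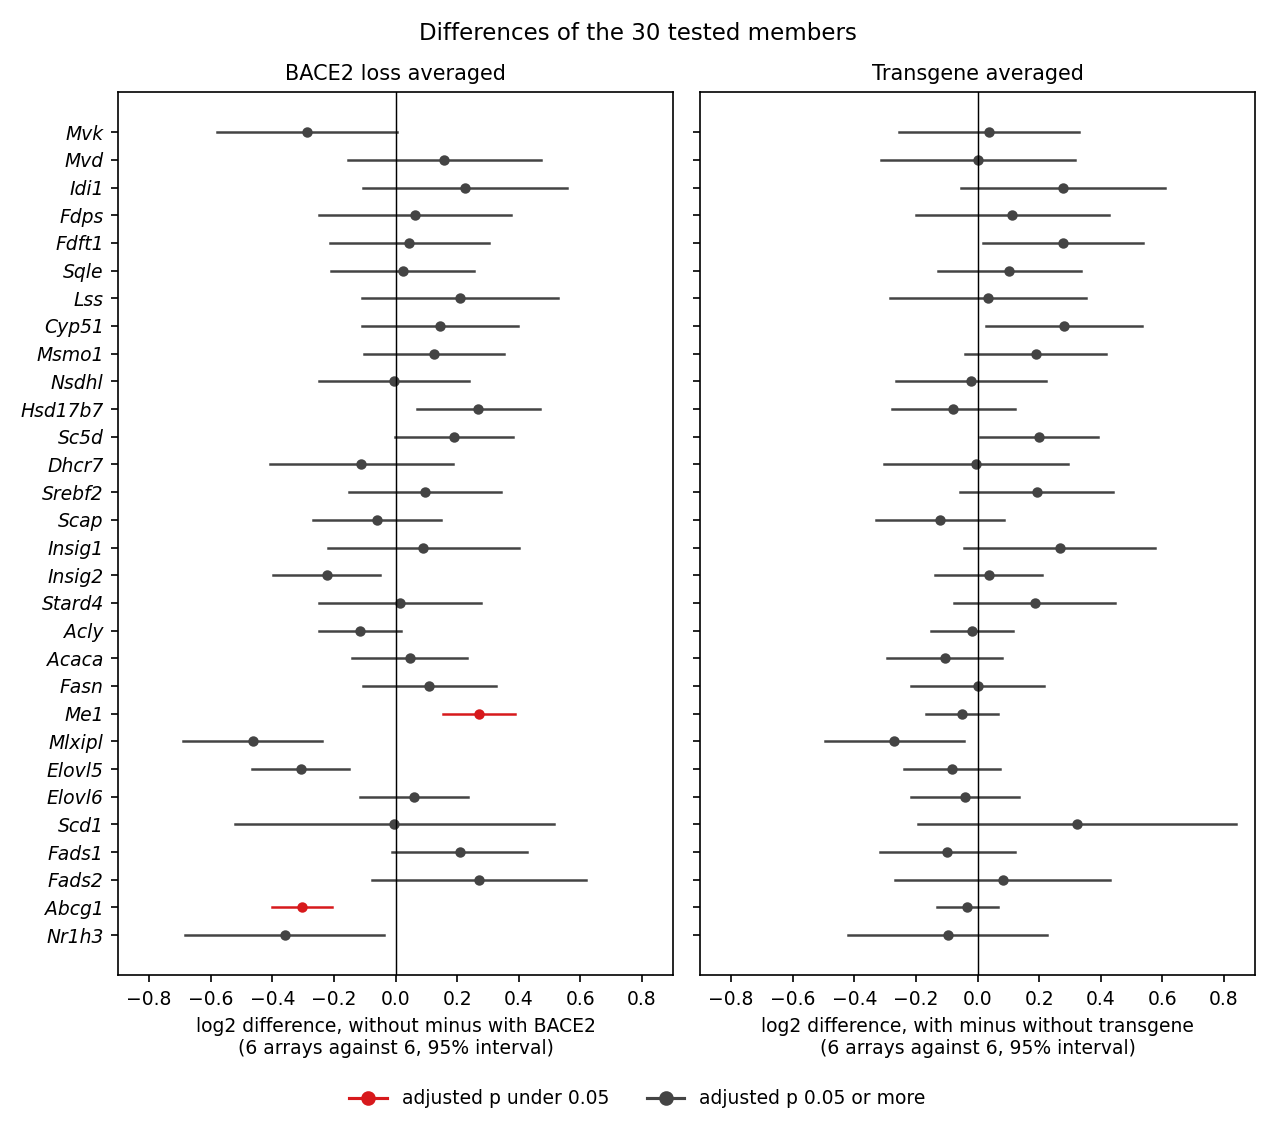
Averaged log2 difference of each of 30 members with its 95% interval, for BACE2 loss (without minus with BACE2) and for the transgene (with minus without), genes in rows by role. In the BACE2 panel the intervals of Abcg1 at -0.30 and Me1 at 0.27 belong to the 2 members called, and no member is called in the transgene panel.

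Other genes of both pathways came from lists, not from how they moved. Of 30 further genes of sterol synthesis, uptake, transport and esterification, 21 were tested and 0 passed in any comparison (limma). In these comparisons 0 to 0.92% of all genes passed. After BACE2 loss 2 of 21 (9.52%) had an unadjusted p under 0.05, a smaller share than the 11.4% of all genes. They were Rxra, the partner receptor of the liver X receptors, at -0.28 (SE 0.11, adjusted p = 0.333), and Nceh1, a cholesteryl ester hydrolase, at 0.16 (SE 0.06, adjusted p = 0.3481). Ch25h, which makes an oxysterol and is known in macrophages, had 5.23, 6.73 and 4.73 in hIAPP-TgxBACE2-KO islets, against 4.46, 3.86 and 4.21 in BACE2-KO islets. These 2 groups did not overlap, as was so for 9.68% of all genes, and the difference was 1.39 (SE 0.43, limma adjusted p = 0.9615). Ch25h had 5.43, 4.68 and 4.39 in hIAPP-Tg and 4.6, 5.15 and 4.33 in WT islets. Both of those groups overlapped the hIAPP-TgxBACE2-KO arrays.

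Of 35 further genes of fatty acid synthesis, activation and glyceride synthesis, 29 were tested and 1 was called, after BACE2 loss, beside 0.92% of all genes. At an unadjusted p under 0.05 there were 2 of 29 (6.90%), beside 11.4% of all genes. Hacd2, a dehydratase of the fatty acid elongation cycle, had 8.87, 9.03 and 8.89 in hIAPP-TgxBACE2-KO and 8.83, 8.92 and 8.85 in BACE2-KO islets, against 8.53, 8.56 and 8.47 in hIAPP-Tg and 8.70, 8.74 and 8.78 in WT islets. Its averaged difference was 0.27 (SE 0.05, limma adjusted p = 0.02983), with no overlap. By transgene state, the difference was 0.41 for hIAPP-TgxBACE2-KO over hIAPP-Tg (SE 0.07) and 0.13 for BACE2-KO over WT (SE 0.07). Limma called neither alone (adjusted p = 0.0592 and 0.898). Whether these 2 sizes differ was tested as the interaction, which was 0.28 (SE 0.10, limma adjusted p = 0.9995) and was not called. The hIAPP-Tg islets differed from WT by -0.22 (SE 0.07, limma adjusted p = 0.9498). Elovl4, an elongase of very long chains, differed by -0.36 (adjusted p = 0.2354). The median difference after BACE2 loss was 0.030 over the 29, 0.053 over the 30 members and 0.018 over all genes.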

How the data were processed

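Total RNA of islets was extracted with Trizol and 150 ng were labelled, per the labels' protocols. The deposited values are log2 levels for 45141 probe sets in 12 arrays, made by the authors. The submitters' processing notes name RMA and affy, without versions, and the genome build is not given in the sources used here. RMA normalizes between arrays, so levels of 1 probe set can be compared between arrays but not between probe sets.

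Of the probe sets, 28898 had 1 gene symbol in the platform annotation, 551 had several and 15692 were not listed. The 25th percentile of gene means was the filter. One model with 4 group means was fitted with limma 3.58.1 in R 4.3.3 (lmFit, eBayes with trend), and calls were made where the two-sided p, adjusted by Benjamini-Hochberg over 12825 genes, was under 0.05. The same steps were tested on simulated data. The simulated arrays were independent and the changes set in them were larger than those of the called members. That test therefore does not bear on calls of this size. Array data hold no read depth, so the number of arrays limits precision. Members and lists were chosen with earlier results of these data known.

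Values in every array are given for called members, for the 4 members with the smallest p in each comparison and for Srebf2, Insig1, Hmgcs1, Sqle, Fasn, Scd1 and Abcg1. Nr1h3 and Insig2, and the plotted Idi1, Msmo1 and Nsdhl, were added after their values were seen. Alternatives covered the filter, probe set choice, normalization, variance model, array weights, block, threshold and each array left out. Motifs were searched with Python 3.11.15.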

Additional observations from a re-analysis of the deposited data

How the results depend on the processing

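The number of members called after BACE2 loss, 2 in the reported fit, was 1 with no filter on level and with eBayes without a trend, 0 with the mean of all probe sets or the probe set of highest variance, and 4 at an adjusted p under 0.10. Leaving out 1 array at a time gave 1 to 2, and leaving out WT array 1 with hIAPP-TgxBACE2-KO array 1, chosen after seeing the data, gave 0. Abcg1 was called in 21 of 24 settings, Me1 in 7, Mlxipl in 4 and Elovl5 in 3. Abcg1 was also called in hIAPP-TgxBACE2-KO over hIAPP-Tg islets (1 member called) with each array centred on its median, with the replicate block and at an adjusted p under 0.10.

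The replicate numbers of the titles were not taken to pair the arrays, because pairing was to be accepted only if every same-numbered pair correlated above 0.1, and 10 of 18 did (-0.13 to 0.37). Still, 8 of 12 arrays correlated best with their own number, but no chance level was worked out for that count. Some differently numbered arrays also correlated, such as WT array 3 with hIAPP-Tg array 2 at 0.30. Whether the arrays were paired is not given by the design and cannot be told from these values. The replicate block called 4 members after BACE2 loss (Abcg1, Elovl5, Insig2 and Me1) and 205 genes in all, beside 118 without it. All-gene calls after BACE2 loss were 192 at an adjusted p under 0.10 and 46 without WT array 1.

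The median member difference was -0.083 for BACE2-KO over WT without WT array 1, with or without hIAPP-TgxBACE2-KO array 1, and lay between -0.083 and 0.13 over single arrays left out. For hIAPP-TgxBACE2-KO over WT it was -0.0033 without WT array 1, -0.040 without both arrays and -0.0033 to 0.20 over single arrays left out. Signs turned with the probe set of highest variance: in hIAPP-TgxBACE2-KO over BACE2-KO for Hsd17b7 (0.31), Sc5d (-0.057) and Srebf2 (-0.0067), in hIAPP-TgxBACE2-KO over WT for Sc5d (-0.41), after BACE2 loss for Srebf2 (-0.077), with the transgene for Sc5d (-0.40) and Srebf2 (-0.017), and in the interaction for Hsd17b7 (0.21) and Abcg1 (0.10). With the mean of all probe sets Sc5d turned to -0.028 in hIAPP-TgxBACE2-KO over WT and to -0.065 with the transgene. After BACE2 loss, single arrays left out moved Insig1 between -0.030 and 0.185, Sqle between -0.028 and 0.12 and Scd1 between -0.24 and 0.12, and without both arrays Insig1 was -0.098 and Scd1 -0.28. The cause was not tested. With 3 arrays a group, differences of the size seen in most members could not be told from the spread between arrays.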
